A study of Mus musculus with 4 samples.

Results

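Macrophages of different organs carry identity genes of their own. The 10 genes described here mark tissue macrophages other than those of the airspaces: Sall1, P2ry12 and Tmem119 of microglia, Clec4f, Cd5l, Vsig4 and Timd4 of Kupffer cells, Gata6 of peritoneal macrophages, Spic of red pulp macrophages of the spleen, and Lyve1 of interstitial and perivascular macrophages. They were examined in alveolar macrophages (AMs), which were recovered by bronchoalveolar lavage and sorted from wild-type C57BL/6J mice 9 weeks old. Binding of SMAD4 was mapped by HT-ChIPmentation with a combination of SMAD4 antibodies in 2 libraries, called replicate 1 and replicate 2 here, and 2 input libraries were the controls. Nothing in the sources states whether the libraries came from separate mice, and there was no second treatment, genotype or cell type. The data are peak lists and hold no RNA level, so that neither the purity of the sort nor silence of a gene could be read from them.

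A peak was assigned to a gene when its summit lay in the gene body or within 50 kb of a transcription start site (TSS) of a curated RefSeq transcript. A shared region is the merged interval of peaks from both replicates that overlap by at least 1 bp. All 10 genes had such a window, out of 20923 protein-coding genes with a curated transcript on chromosomes 1 to 19 and X. The lists held 16369 peaks in replicate 1 and 19015 in replicate 2, which gave 10964 shared regions. The rule uses gene names and positions and no measured value. The 10 genes and the comparison lists below were, however, chosen with earlier results of these data known.

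SMAD4 is the partner through which receptor-activated SMAD proteins carry TGFβ family signals into the nucleus. TGFβ is a niche signal both for AMs and for microglia, and SMAD complexes bind largely where lineage factors such as PU.1 have opened the chromatin. Which enhancers are open differs between tissue macrophages, and the genes described here are known for high expression in 1 or a few of them.

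Of the 10 genes, 3 had at least 1 shared region in the window: P2ry12 with 3 regions, Lyve1 with 4 and Spic with 1. Over all protein-coding genes 39.1% had a shared region by the same rule, so that the count of 3 of 10 was near the background. A peak of either replicate was present for 4 of 10 members and 58.2% of protein-coding genes. The same 4 had a peak of replicate 1 (46.6% of protein-coding genes) and a peak of replicate 2 (53.4%). Tmem119 had peaks in both replicates that did not overlap. Peaks of either replicate or of both, without a shared region, were found for 19.1% of protein-coding genes. The other 6 genes, Sall1, Clec4f, Cd5l, Vsig4, Timd4 and Gata6, had no peak of either replicate in the window, compared with 41.8% of protein-coding genes. All 4 Kupffer cell genes were among these 6. No member had a shared region in its own promoter, from 1 kb upstream to 100 bp downstream of a TSS, where 3.22% of protein-coding genes had one.

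The windows held 11 peaks in replicate 1 and 16 in replicate 2. A partner in the other replicate was present for 8 of the 11 and for 8 of the 16. Over the whole lists 69.4% of peaks in replicate 1 and 59.2% in replicate 2 had one. Another gene's TSS was nearer than the member's own for 6 of the 11 and 9 of the 16. The median protein-coding gene had 0 shared regions in its window, as did the median member. At least 3 regions, as for P2ry12 and Lyve1, were present for 10.3% of protein-coding genes, and at least 4, as for Lyve1, for 5.85%.

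**Figure D1:**
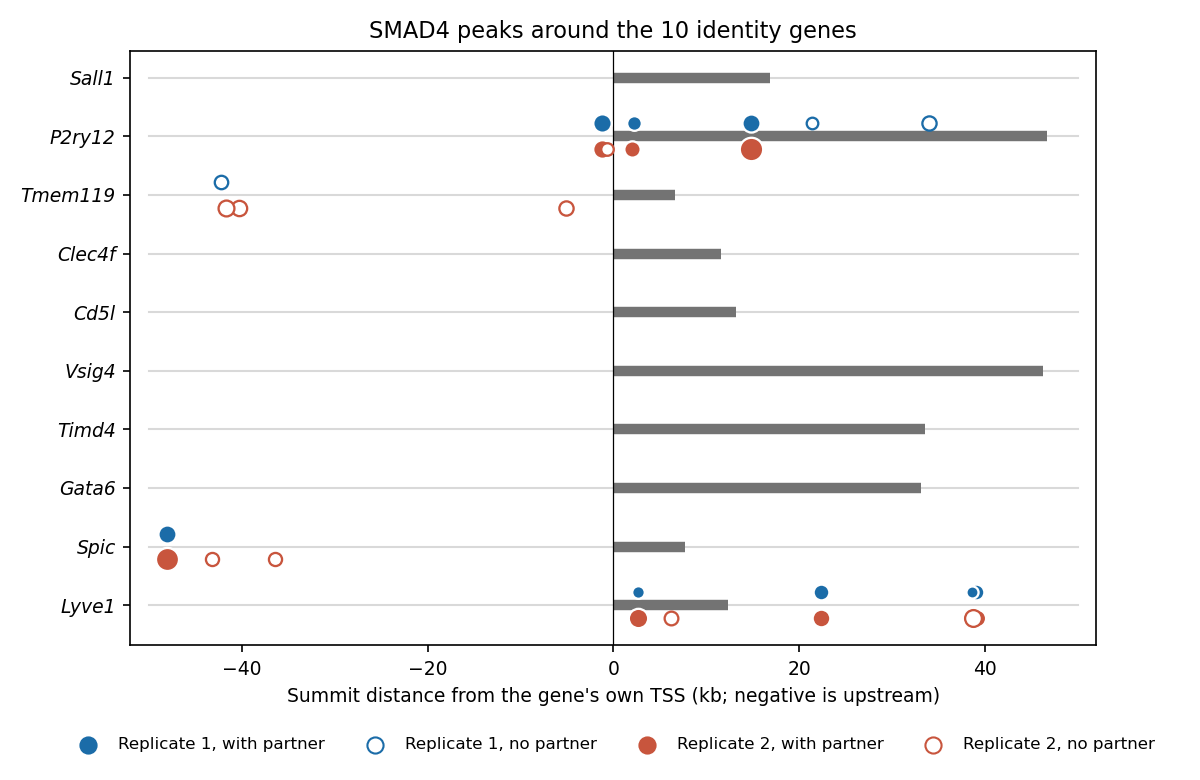
Positions of SMAD4 peak summits around the 10 genes, as the distance in kb from the nearest TSS of the gene itself, in the direction of transcription. Circles are peaks of replicate 1 (blue, above each line) and replicate 2 (red, below), with an area in proportion to fold enrichment, filled where the peak has a partner in the other replicate. Grey bars are gene bodies drawn from the outermost TSS. Lines without circles are the 6 genes with no peak.

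P2ry12 encodes the purinergic receptor through which microglia sense nucleotides. It lies on the minus strand of chromosome 3 at 59216271 to 59262985 (mm10, as all coordinates), inside the longer gene Med12l, and no other TSS fell in its window. All 3 of its shared regions had the TSS of P2ry12 as the nearest. The first was 1256 bp upstream of the TSS, in an intron of Med12l, at 59264085 to 59264433. There the summit rose above its control by a fold of 9.75 in replicate 1 and of 9.93 in replicate 2, a mean of 9.84 ± 0.125 (SD, n = 2), with 29 and 21 fragments stacked at the summit. The second lay in an intron of P2ry12 14839 bp downstream of the TSS, at 59247977 to 59248448, with folds of 9.42 (28 fragments) and 15.8 (34 fragments), a mean of 12.6 ± 4.5. The third, also in an intron of P2ry12, lay 2079 bp downstream of the TSS at 59260687 to 59261086, with 6.17 (18 fragments) and 7.67 (16 fragments).

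By the smaller of the 2 folds, 75.1% of all shared regions were weaker than the upstream region of P2ry12, 73.3% than the region 14839 bp into the gene and 43.2% than that at 2079 bp. The summits of the replicates were 24, 61 and 229 bp apart, in the same order. In the last of these the summit of replicate 1 fell in an exon of Med12l and that of replicate 2 in an intron. Replicate 1 had 2 further peaks in the gene body without a partner. The weaker one, at 59241552 to 59241687, had a fold of 3.87 (15 fragments), and the other, at 59228845 to 59229259, had 5.85 (17 fragments) and was nearer to the TSS of P2ry13. Replicate 2 had 1 unpaired peak, 640 bp upstream of the TSS of P2ry12 and so in its promoter, with a fold of 4.51 on 9 fragments. In that peak the 201 bp around the summit had a GC content of 29.4%.

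The window ended just short of a much stronger site. At 59211859 to 59212846, 541 bp beyond the window and 1562 bp upstream of the TSS of P2ry13, the gene of a related purinergic receptor, a shared region had folds of 20.8 and 21.2. It was not counted for P2ry12.

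The sequences below are the 201 bp around the mean summit of 4 regions, read from the plus strand of GRCm38 (mm10), 5′ to 3′. Shown are the P2ry12 regions with the most even folds and with the highest mean fold. The others are the region inside Lyve1 and the region near Lyve1 that held 2 of the searched strings. Capitals mark letters of a searched string, and no capitals mean no match.
P2ry12 upstream, chr3:59264141-59264341: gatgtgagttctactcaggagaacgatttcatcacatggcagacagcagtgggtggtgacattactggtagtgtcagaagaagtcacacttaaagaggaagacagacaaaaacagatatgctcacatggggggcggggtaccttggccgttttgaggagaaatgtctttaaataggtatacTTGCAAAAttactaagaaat
P2ry12 intron, chr3:59248046-59248246: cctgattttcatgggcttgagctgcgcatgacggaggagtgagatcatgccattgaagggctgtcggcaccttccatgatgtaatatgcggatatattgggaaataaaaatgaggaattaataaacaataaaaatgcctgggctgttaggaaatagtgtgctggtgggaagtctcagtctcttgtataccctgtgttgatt
Lyve1 intron, chr7:110860196-110860396: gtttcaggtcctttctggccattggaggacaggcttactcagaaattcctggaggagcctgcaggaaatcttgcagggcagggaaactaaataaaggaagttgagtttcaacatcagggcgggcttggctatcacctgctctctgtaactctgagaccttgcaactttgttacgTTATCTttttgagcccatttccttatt
Rnf141 intron near Lyve1, chr7:110840488-110840688: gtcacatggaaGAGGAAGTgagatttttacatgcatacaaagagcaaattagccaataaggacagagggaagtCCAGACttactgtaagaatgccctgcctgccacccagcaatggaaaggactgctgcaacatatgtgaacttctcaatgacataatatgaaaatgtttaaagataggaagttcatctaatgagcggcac

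Lyve1 encodes a hyaluronan receptor found on lymphatic endothelium and on macrophages that lie along vessels. It is on the minus strand of chromosome 7 at 110850607 to 110862953. Only 1 of its 4 shared regions was nearest to its own TSS. That region lay in an intron of Lyve1, 2657 bp downstream of the TSS, at 110860171 to 110860517. By the ratio of the folds, the replicates differed more here than in the other 7 regions, with a fold of 4.55 (13 fragments) in replicate 1 and 10.8 (23 fragments) in replicate 2, a mean of 7.69 ± 4.44 (SD, n = 2). That ratio was 2.38, compared with a median of 1.39 over all shared regions. By its smaller fold, 12.4% of shared regions were weaker.

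The other 3 regions lay in introns of Rnf141, the neighbour downstream of Lyve1, which encodes a RING finger protein, and were nearest to the Rnf141 TSS. At 110840387 to 110840774, 3793 bp from the TSS of Rnf141 and 22365 bp from that of Lyve1, the folds were 7.15 (21 fragments) and 9.02 (19 fragments). At 110823627 to 110824005 they were 7.15 (21 fragments) and 8.57 (18 fragments). The weakest of all 8 regions, at 110824276 to 110824584, had 4.22 and 5.87 on 12 fragments in either replicate, and 6.91% of shared regions were weaker. Between these last 2 regions replicate 2 had an unpaired peak with a fold of 8.12, which ended 35 bp short of a peak of replicate 1. A second unpaired peak of replicate 2 lay in an intron of Lyve1 6181 bp downstream of the TSS (5.41, 11 fragments).

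Spic encodes the ETS factor that red pulp macrophages need to form and to recycle iron. It lies on the minus strand of chromosome 10 at 88675269 to 88683023. Its single shared region, at 88730852 to 88731272, was 48025 bp upstream and just inside the 50 kb limit. It was in the promoter of another gene, Gm4925, 53 bp downstream of that gene's TSS, with folds of 9.42 (28 fragments) and 15.3 (33 fragments), a mean of 12.4 ± 4.18 (SD, n = 2). The 2 unpaired peaks of replicate 2, 36468 and 43170 bp upstream of Spic, each had a fold of 4.96 on 10 fragments, and Gm4925 was nearest to both. No peak of either replicate in the window was nearest to the TSS of Spic.

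**Figure D2:**
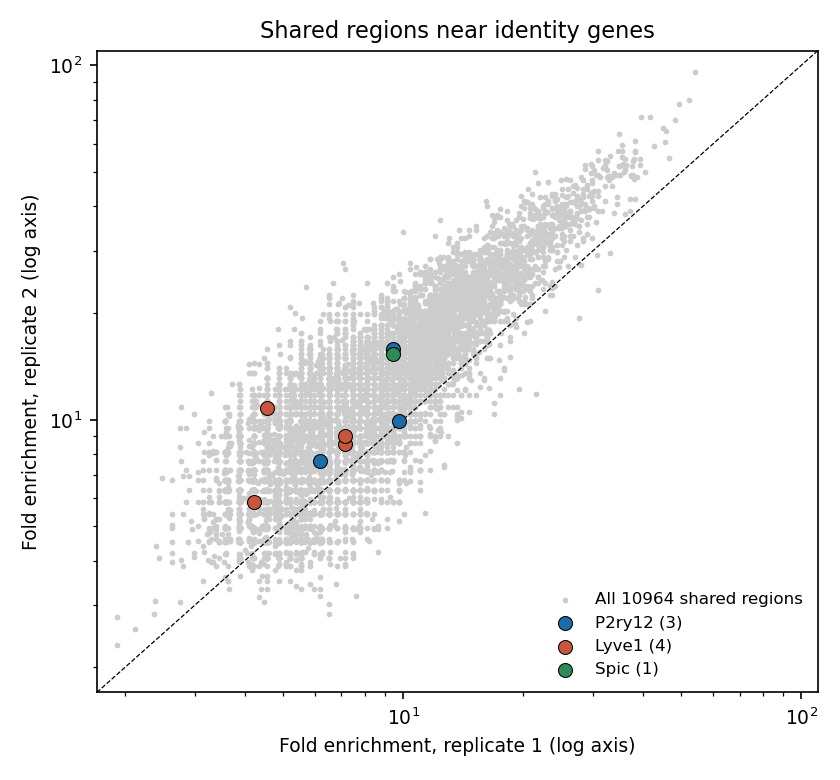
Fold over control in shared regions, replicate 1 (x axis) against replicate 2 (y axis), on log axes, taken from the higher peak where a replicate has several, with the dashed line at equal folds. Grey points are all 10964 shared regions and large points the 8 regions in windows of P2ry12, Lyve1 and Spic, whose folds run from 4.22 to 9.75 in replicate 1 and from 5.87 to 15.8 in replicate 2.

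In all 8 regions the fold of replicate 2 was above that of replicate 1, by 1.02 to 2.38 times. Over all shared regions the median folds were 6.82 in replicate 1 and 9.48 in replicate 2. The control level was 2.08 fragments at the summits of the 8 regions in replicate 1 and 1.22 in replicate 2, so that the same number of fragments gave a higher fold in replicate 2, and no difference in binding between replicates was read from the folds.

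Tmem119 encodes a membrane protein that separates microglia from other brain macrophages. It lies on the minus strand of chromosome 5 at 113793729 to 113800396. Its 4 peaks did not overlap between the replicates. The single peak of replicate 1, at 113842544 to 113842732, was 42240 bp upstream of Tmem119, in an exon of Coro1c, with a fold of 5.2 (15 fragments). The closest peak of replicate 2, at 113841985 to 113842170, ended 374 bp before it and had a fold of 7.22 (15 fragments). A further peak of replicate 2, at 113840594 to 113840752, had 6.77 (14 fragments). All 3 were nearest to the TSS of Selplg, which encodes the selectin ligand PSGL-1. The fourth peak, of replicate 2 alone, lay 5132 bp upstream of Tmem119 at 113805420 to 113805591, with a fold of 5.86 (13 fragments), and Tmem119 was its nearest gene.

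The 11 unpaired peaks near the members rested on 9 to 17 fragments. The base composition of unpaired peaks differed between the lists as a whole, with a mean GC content of 32% in replicate 1 and 43.3% in replicate 2. Around the summits of the 3 unpaired member peaks of replicate 1 it was 42.8%, 37.3% and 52.7%, and its part in what was called was not tested. The weakest peaks of the whole lists had 9 fragments in replicate 1 and 7 in replicate 2, so that sites with fewer fragments than the calling threshold needs cannot appear in these data. A window without a peak therefore means that no site was called at this depth, not that SMAD4 was absent.

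The 6 genes without a peak differed in how far away the nearest shared region lay. For Vsig4, the complement receptor of Kupffer cells (chromosome X, 96247201 to 96293438), it was 53710 bp from the TSS, with folds of 12.3 and 19.4 in the promoter of F630028O10Rik. For Gata6, the factor that sets the peritoneal programme (chromosome 18, 11052510 to 11085635), it was 58742 bp upstream. That region was intergenic with Gata6 as the nearest gene and had folds of 4.84 and 6.32. These regions lay 3710 and 8742 bp beyond the window. A region 63938 bp from the TSS of Tmem119, with folds of 3.57 and 6.28, lay 13938 bp beyond it.

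Clec4f, a lectin particular to Kupffer cells (chromosome 6, 83644542 to 83656116), was 120052 bp from a shared region. Cd5l, which encodes the secreted protein AIM (chromosome 3, 87357881 to 87371074), was 209820 bp away. Replicate 1 alone had a peak 50854 bp from the TSS of Cd5l, also just outside the limit. The distances were largest for Timd4, the phosphatidylserine receptor TIM-4 (chromosome 11, 46810799 to 46844333), at 343645 bp, and for Sall1, the microglial transcription factor (chromosome 8, 89027242 to 89044162), at 347015 bp. For Sall1 the window was measured from 3 TSSs. The nearest region to Sall1, at 88695698 to 88695975, had folds of 5.52 and 6.32 and was nearest to Cyld.

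Over all protein-coding genes, the median distance from a TSS to a shared region was 84669 bp. Of the 10 members, 6 were closer than this median, with distances from 1256 bp for P2ry12 to 63938 bp for Tmem119, and 4 were farther. A closer shared region than that of Sall1 was present for 81.9% of protein-coding genes, and than that of P2ry12 for 4.74%. The reference held at most 2 unknown bases in any member window. Repeats made up 51.6% of the window of Vsig4 and 17.6% of that of Sall1, the highest and the lowest of the 10. Both had no peak, and the part of repeats in what was called was not tested.

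**Figure D3:**
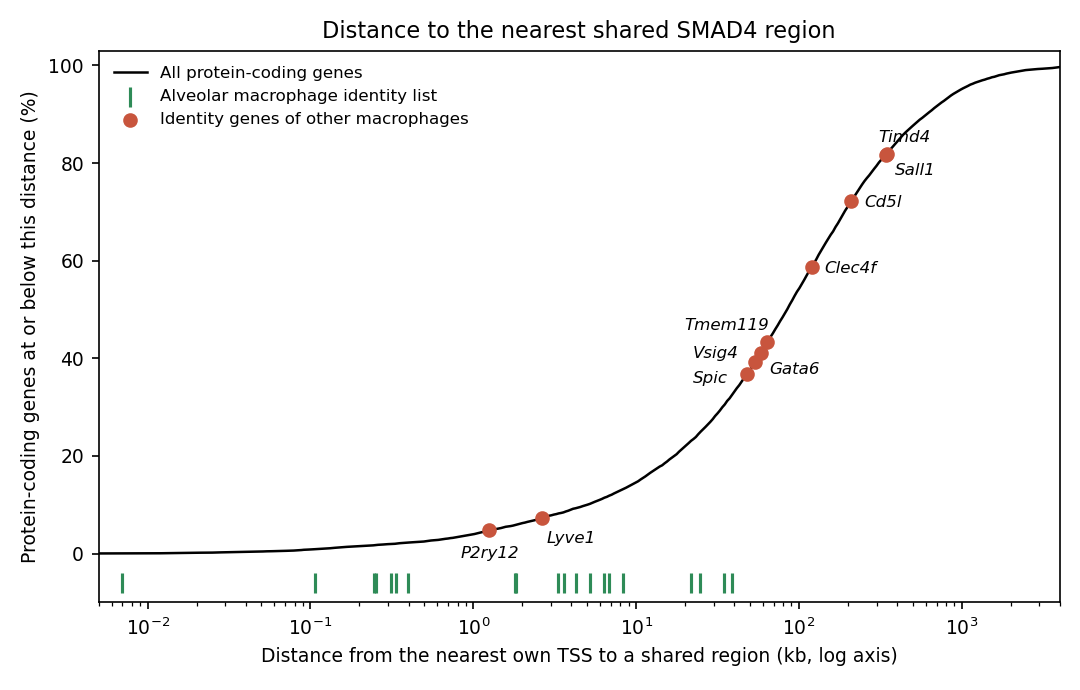
Distance from a gene's nearest TSS to the mean summit of the nearest shared region, in kb on a log axis, against the share of protein-coding genes at or below that distance (black line). Red points are the 10 genes, from P2ry12 at 1256 bp to Sall1 at 347015 bp. Green ticks near the foot are the 20 genes of the alveolar list, all within 50 kb.

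The study gave each of its peaks to the gene with the nearest TSS. Here that rule was applied at any distance to the shared regions and curated TSSs, not to the study's own peak set. By it, 3 of the 10 genes had a region, P2ry12, Lyve1 and Gata6. The share of protein-coding genes that had one was 21.5%. Gata6 entered only through the weak region 58742 bp upstream, and Spic dropped out. In the gene body itself, 2 of 10 members (P2ry12 and Lyve1) had a shared region, compared with 14.1% of protein-coding genes.

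The members were set beside 2 other lists. The first held 32 further genes known from microglia, Kupffer cells and peritoneal, red pulp, interstitial and perivascular macrophages. Of these, 21 (65.6%) had a shared region in the window, beside 39.1% of protein-coding genes, and 4 had no peak of either replicate. By cell type these were 6 of 9 microglial genes, 5 of 6 Kupffer cell genes, 3 of 6 peritoneal, 4 of 5 red pulp and 3 of 6 interstitial and perivascular genes. The corresponding members were 1 of 3, 0 of 4, 0 of 1, 1 of 1 and 1 of 1. The difference between the lists for Kupffer cell genes, 0 of 4 and 5 of 6, was not tested. Only 2 of those 6 wider genes had their own TSS nearest to a shared region, and 0 of the 4 members. The windows were also unlike. Other genes with a TSS in the window had a median of 3.5 for the wider Kupffer cell genes and 0.5 for these members. The strongest regions of the wider list were near Ccl8, a chemokine (folds 23.7 and 37.9), P2ry13 (20.8 and 21.2) and Clec1b, a C-type lectin-like receptor (19.8 and 35.2, in a promoter and nearest to Clec12a). P2ry13 is a neighbour of P2ry12, and 2 of the 5 regions in its window were also among the 3 of P2ry12.

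The second list held 20 genes of AM identity. All 20 had a shared region in the window, beside 39.1% of protein-coding genes, with a median of 3.5 regions and up to 11. Of the 20, 19 were nearest to one, beside 21.5% of protein-coding genes. The strongest regions were near Chil3, a chitinase-like protein (45.8 and 65.4), Pparg, the nuclear receptor that AMs need to mature (33.8 and 49.6), and Car4, a carbonic anhydrase (30.9 and 42.9). By the smaller fold, the strongest region had a median of 13.8 over these 20 genes, with a range of 5.41 to 45.8. It was 9.75 for P2ry12, 9.42 for Spic and 7.15 for Lyve1, and the median over all protein-coding genes with a region was 7.8. The Spic value came from the region in the Gm4925 promoter and the Lyve1 value from an Rnf141 intron. In the region inside Lyve1 the smaller fold was 4.55. Each value is a maximum over the regions of a gene, whose number differed between genes. A shared region in the promoter was present for 6 of the 20, beside 3.22% of protein-coding genes. Several genes of this list, Itgax, Pparg and Siglecf among them, were taken up by the study in its work on SMAD4 and related factors, so that the list is not independent evidence. Mrc1 is in both comparison lists. No test was made between the lists, and counts and medians are descriptions.

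**Figure D4:**
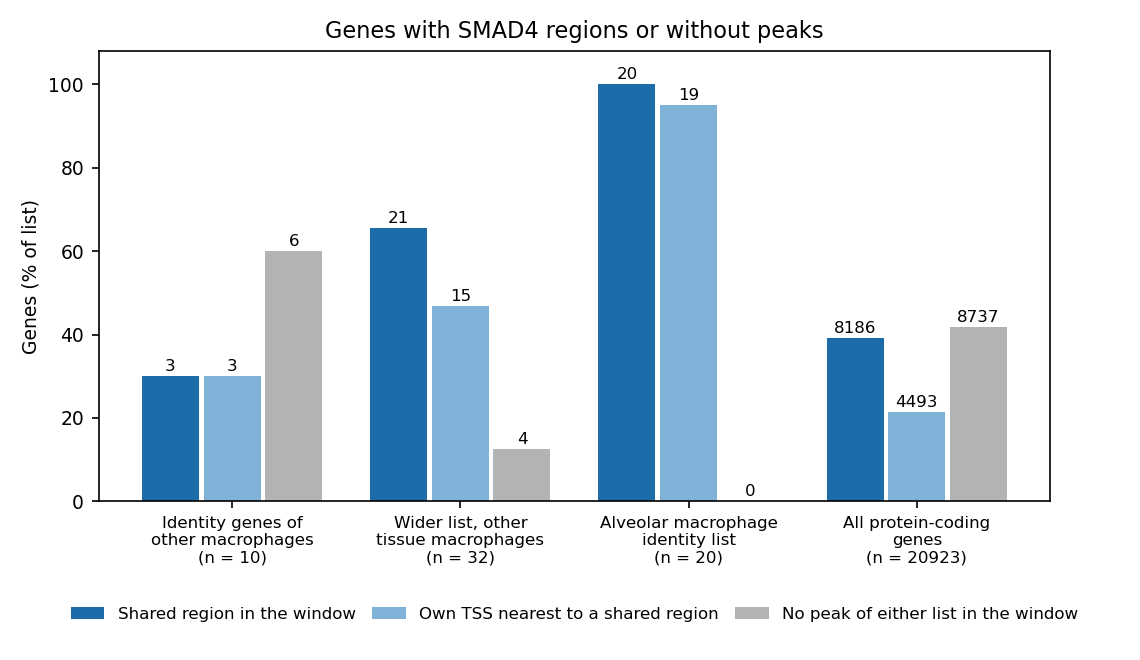
Share of genes in % of each list with a shared region in the window (dark blue), with their own TSS nearest to a shared region (light blue) and with no peak of either replicate in the window (grey), with the number of genes above each bar. The 10 members had 3, 3 and 6 such genes, the wider list 21, 15 and 4 of 32, the alveolar list 20, 19 and 0 of 20, and all protein-coding genes 8186, 4493 and 8737 of 20923.

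The 8 regions near members were searched for 12 strings on both strands of the 201 bp around the mean summit. They were TTGCNNAA for CEBP, GAGGAAGT for PU.1, CAGGAAGT for other ETS factors, TGACTCA for AP-1, TGTGGTT for RUNX, GTCTGG and the palindrome GTCTAGAC for SMAD, TTCNNNGAA for STAT, CACGTG for the E-box, AGGTCA for the nuclear receptor half-site, TGCTGAC for the MAF half-site and AGATAA for GATA. The PU.1 and ETS strings differ in their first letter only, and both SMAD strings start with GTCT. At least 1 string was present in 3 of the 8 regions, compared with 77% of all shared regions.

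The CEBP string was in 1 of the 8 regions and in 40.9% of all shared regions. It occurred as TTGCAAAA in the region upstream of P2ry12, at 59264322 to 59264329, 84 bp from the summit. The region in the Rnf141 intron near Lyve1 held the PU.1 string, at 110840499 to 110840506, and the SMAD string on the minus strand, read as CCAGAC on the plus strand at 110840561 to 110840566, 25 bp from the summit. These strings were in 8% and 11.2% of all shared regions. The intronic region of Lyve1 held the GATA string on the minus strand at 110860370 to 110860375, as did 9.39% of all shared regions. None of the 12 strings was found in the windows of the other 5 regions, those of the promoter of Gm4925 and the strongest P2ry12 intron included. A match is a description of the letters and no evidence of binding by the named factor.

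GC content in the 8 windows ran from 41.3% to 55.2%, and the highest was that of the region in the Gm4925 promoter. The mean over all shared regions was 43.7%. Repeats covered 28.4% of the window of the Rnf141 intron region at 110823627, 11.4% of the P2ry12 intron window and 9.45% of the P2ry12 upstream window, and 0 in the other 5.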

How the data were processed

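SMAD4 HT-ChIPmentation was performed in 2 AM libraries with 2 input libraries. Per the methods of the authors, adapters were cut off with Cutadapt, Bowtie2 placed the reads on mm10, and PICARD and samtools served to remove duplicates and low-quality alignments. Peaks were called per library with MACS3 at a q-value of 0.05 against input, without pooling. Per deposited peak, fold is the ratio of summit pileup over control, each plus 1, beside a −log10 p, a −log10 q and a deposited score. That score equals the −log10 q times 10, rounded down, and played no part. Total read depth was not used here. Fold and p were solved for fragments at the summit, and 100% of peaks gave a whole number within 0.02.

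Gene models were 45657 curated RefSeq transcripts of GRCm38 (26089 genes). Features were promoter, transcription termination site, exon, intron and intergenic, in that order. Replicates were numbered in accession order. With 2 libraries and no second condition, no test was made. The 201 bp windows extend 100 bp each side of the mean summit. Members and lists were chosen with earlier results of these data known. By rule all members were named, and of the other lists the 3 genes with the strongest region by the smaller fold. Mrc1, Itgax and Siglecf are named outside the rule for their membership of a list, and the red pulp genes of the closing section were chosen after their values were seen. The window and overlap code was tested on simulated data. Alternatives changed the window, the overlap, the peak threshold, the gene models and the replicates. Python 3.11.15, numpy 2.4.6, pandas 2.3.3 and scipy 1.17.1 were used.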

Additional observations from a re-analysis of the deposited data

How the results depend on the processing

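Of 68 alternative values, 51 stayed within 1.5 times the reported one. With a window of 100 kb, 6 of the 10 members had a shared region (Tmem119, Vsig4 and Gata6 in addition), beside 54.9% of protein-coding genes. The same window gave 18 shared regions, 8 of them near P2ry12, and 27 and 30 peaks in replicates 1 and 2. A window of 10 kb gave 4 regions and 6 and 7 peaks, and the gene body alone gave 3 regions and 5 and 4 peaks. The gene body held a shared region for 10 genes of the wider and 11 of the alveolar list, beside 14.1% of protein-coding genes. Summits within 100 bp left 5 shared regions near members. A fold of at least 5 left 1 member nearest to a region, P2ry12, beside 17.9% of protein-coding genes. At least 1 string was found in 1 of 8 regions with 50 bp each side of the summit (55.6% of all shared regions) and in 6 of 8 with 200 bp (90.5%). Leaving out a replicate replaced shared regions by the peaks of the other, which gave 11 peaks without replicate 2 and 16 without replicate 1. Without replicate 1, a peak was present for 4 members, 27 genes of the wider and 20 of the alveolar list (53.4% of protein-coding genes), and 4 members were nearest to one (31.2%). Without replicate 2 these were 4, 22 and 20 genes (46.6%) and 4 members (27.2%). No paired analysis was possible because the replicate numbers follow accession order and no result came from a test. The lists hold no site with fewer than 9 fragments in replicate 1 or 7 in replicate 2, and the part of depth in this was not tested.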

Other observations

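The wider list held 5 genes known from red pulp macrophages of the spleen, which were picked out after their values were seen, and all 5 are given. A shared region was in the window of 4 of them, beside 39.1% of protein-coding genes, and in the promoter of 2, beside 3.22%. These 2 were the only genes of the 32 in the wider list with a shared region in the promoter. Their count therefore follows from how the group was picked and is no evidence of enrichment. The member Spic, also of red pulp macrophages, had no shared region in its own promoter. Hmox1, which encodes the heme-degrading enzyme heme oxygenase 1, had its promoter region on chromosome 8 at 75093410 to 75093735, with folds of 3.9 in replicate 1 and 11.7 in replicate 2. Vcam1, which encodes an adhesion molecule, had its promoter region on chromosome 3 at 116130239 to 116130484, with folds of 5.85 and 9.02. Bach1, which encodes a heme-sensing repressor, had an intronic region 915 bp downstream of its TSS on chromosome 16 at 87699727 to 87699972, with folds of 3.9 and 4.96. Treml4, which encodes a receptor of the TREM family, had 7 shared regions in the window, of which 0 were nearest to its own TSS, and the strongest, with folds of 11 and 16.2, was nearest to Trem1. Slc40a1, the gene of the iron exporter ferroportin, had 1 unpaired peak of replicate 1 and no shared region in the window. Its nearest shared region lay 489419 bp away.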
